A study of Mus musculus with 8 samples.

Results

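Liver RNA of NZO and B6 mice was examined for 10 genes of the unfolded protein response and the integrated stress response, namely Hspa5, Hsp90b1, Dnajb9, Herpud1, Xbp1, Creb3l3, Atf4, Ddit3, Atf3 and Trib3. The genes were taken by name from the array annotation, which gave 12 of the 55681 probes and 10 of the 34836 gene names on the array. Atf4 and Dnajb9 had 2 probes each, which were kept separate, and the other genes had 1. At the limits used here, limma called a strain difference for 0 of the 12 probes, beside 9.62% of all probes tested. Some other settings did call a member, as lower in NZO. Herpud1 was called with normexp background correction, with the deposited series table and with unadjusted p. Trib3 was called with the scan day in the model, with the deposited series table and without the mouse B6 011. Of 186 other tested genes of the pathways 15 were called, among them Fgf21, Atf5 and Mthfd2 as higher in NZO and Derl3, Fkbp7, Egr1 and Junb as lower. The call of Fgf21 was lost in 6 of 8 omissions of a single mouse, and that of Egr1 in 3. With normexp background correction Mthfd2, Fkbp7 and Junb were not called. With the array slide in the model as a fixed term, 1 pathway gene was called, Eif2ak2. The 15 include Fos, which passed the filter on dim probes through the B6 arrays alone.

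NZO mice (NZO/HiBomDife) are an obese, diabetes-susceptible inbred strain, and B6 mice (C57BL/6) are lean and resistant to diabetes. All were males on a high fat diet with 45% fat up to an age of 6 weeks, and no transgene, deletion or drug is named in the labels. Liver RNA of 4 mice per strain was labelled with Cy3 and hybridised to 1-colour Agilent arrays with probes of 60 bases, 1 array per mouse. All groups shared the diet, so strain is the single contrast.

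The endoplasmic reticulum (ER) folds secreted and membrane proteins, and hepatocytes, which secrete most plasma proteins, carry a large load of it. When unfolded proteins accumulate, the sensors IRE1 (Ern1), PERK (Eif2ak3) and ATF6 start the unfolded protein response: IRE1 splices Xbp1 mRNA, ATF6 is cut to a transcription factor, and both raise chaperones and degradation factors of the ER. PERK and the kinases GCN2, PKR and HRI phosphorylate eIF2, which lowers general translation but favours translation of ATF4, and this branch, shared with amino acid shortage, viral RNA and heme shortage, is the integrated stress response. Much of the signal in both pathways lies in splicing, protein cleavage, phosphorylation and translation, which an array of mRNA levels does not read.

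The DNA elements through which these factors act are short, and 3 of the 10 genes carried one in the promoter as RefSeq gives it (build GRCm38.p6, 250 bases before to 50 bases after the transcription start). All 10 genes had a promoter in the table, with 11 start sites. On both strands, the ER stress response element ERSE (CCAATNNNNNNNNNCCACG) was found in Hspa5 and Hsp90b1, and the related ERSE-II (ATTGGNCCACG) in Herpud1. Among all 32851 promoters of this length, 0.119% held ERSE and 0.0365% held ERSE-II. The sequences below show these sites in capitals, 5′ to 3′ on the strand of the gene, beside those of Derl3 and Fgf21, the genes of the ER degradation list and the ATF4 list with the largest strain differences.
Hspa5 (chr2:34772005-34772063, plus strand): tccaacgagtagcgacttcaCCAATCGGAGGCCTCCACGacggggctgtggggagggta
Hsp90b1 (chr10:86705513-86705676, minus strand): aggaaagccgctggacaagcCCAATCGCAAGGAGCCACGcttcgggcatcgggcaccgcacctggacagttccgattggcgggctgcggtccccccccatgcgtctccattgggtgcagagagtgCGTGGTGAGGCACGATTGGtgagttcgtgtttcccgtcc
Herpud1 (chr8:94386357-94386407, plus strand): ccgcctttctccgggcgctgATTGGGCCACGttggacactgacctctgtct
Derl3 (chr10:75893222-75893280, plus strand): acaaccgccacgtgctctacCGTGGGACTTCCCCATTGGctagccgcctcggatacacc
Fgf21 (chr7:45615602-45615650, minus strand): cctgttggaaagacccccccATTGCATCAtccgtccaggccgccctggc

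The ERSE of Hspa5 lay at positions -65 to -47 from the start, and Hsp90b1 held it at -212 to -194 and, on the opposite strand, at -107 to -89. Herpud1 had its ERSE-II at -52 to -42. In Derl3 an ERSE on the opposite strand lay at -156 to -138, and in Fgf21 the capitals mark the C/EBP-ATF response element CARE (TGATGNAAT), on the opposite strand at -140 to -132. CARE was in 0.965% of all promoters and in 0 of the 10 genes. The element UPRE (TGACGTGG), in 0.676% of all promoters, and the cAMP response element CRE (TGACGTCA), in 1.79%, were also in 0 of the 10 genes. ERSE and ERSE-II share the bases CCACG at the end, but no promoter of the 10 genes matched both. These matches are letters in a window of 300 bases and were not tested for binding.

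The level of a probe is given as log2 of its signal relative to the 75th percentile of the same array, so that 0 is that percentile and a step of 1 is a factor of 2. A difference is the log2 fold change of NZO over B6, with the standard error (SE) of limma and its 95% interval. A probe was called when limma's p, adjusted by Benjamini-Hochberg over the 27639 probes that stood above background on each array of NZO, of B6 or of both, was at most 0.05 and the log2 fold change was at least 0.7 in either direction. By this rule 9.62% of the tested probes were called, 4.33% higher and 5.28% lower in NZO. Without adjustment, 27.8% of the probes had a p of at most 0.05 and 12.2% also passed the fold limit. Nothing in the labels says how mice were housed or processed together, and p-values measure the spread between these animals. How precise a value can be is limited by the 4 arrays per strain.

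Before the comparisons, the samples were checked against markers. Albumin (Alb) was the brightest of 5 hepatocyte markers, which were above background on all arrays, and their summed level was 11.89 to 11.94 in NZO and 11.55 to 11.88 in B6. Skeletal muscle markers set 2 arrays apart. Their summed level, led by Myh4, was 4.15 in NZO 007 but between -2.88 and -1.73 in the other NZO mice, and 2.51 in B6 010 but between -1.34 and 0.49 in the other B6 mice. In bulk RNA, fewer cells of a type and less RNA per cell cannot be told apart. The comparisons were repeated without either mouse, and 0 of the 12 probes were called both times.

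**Figure D1:**
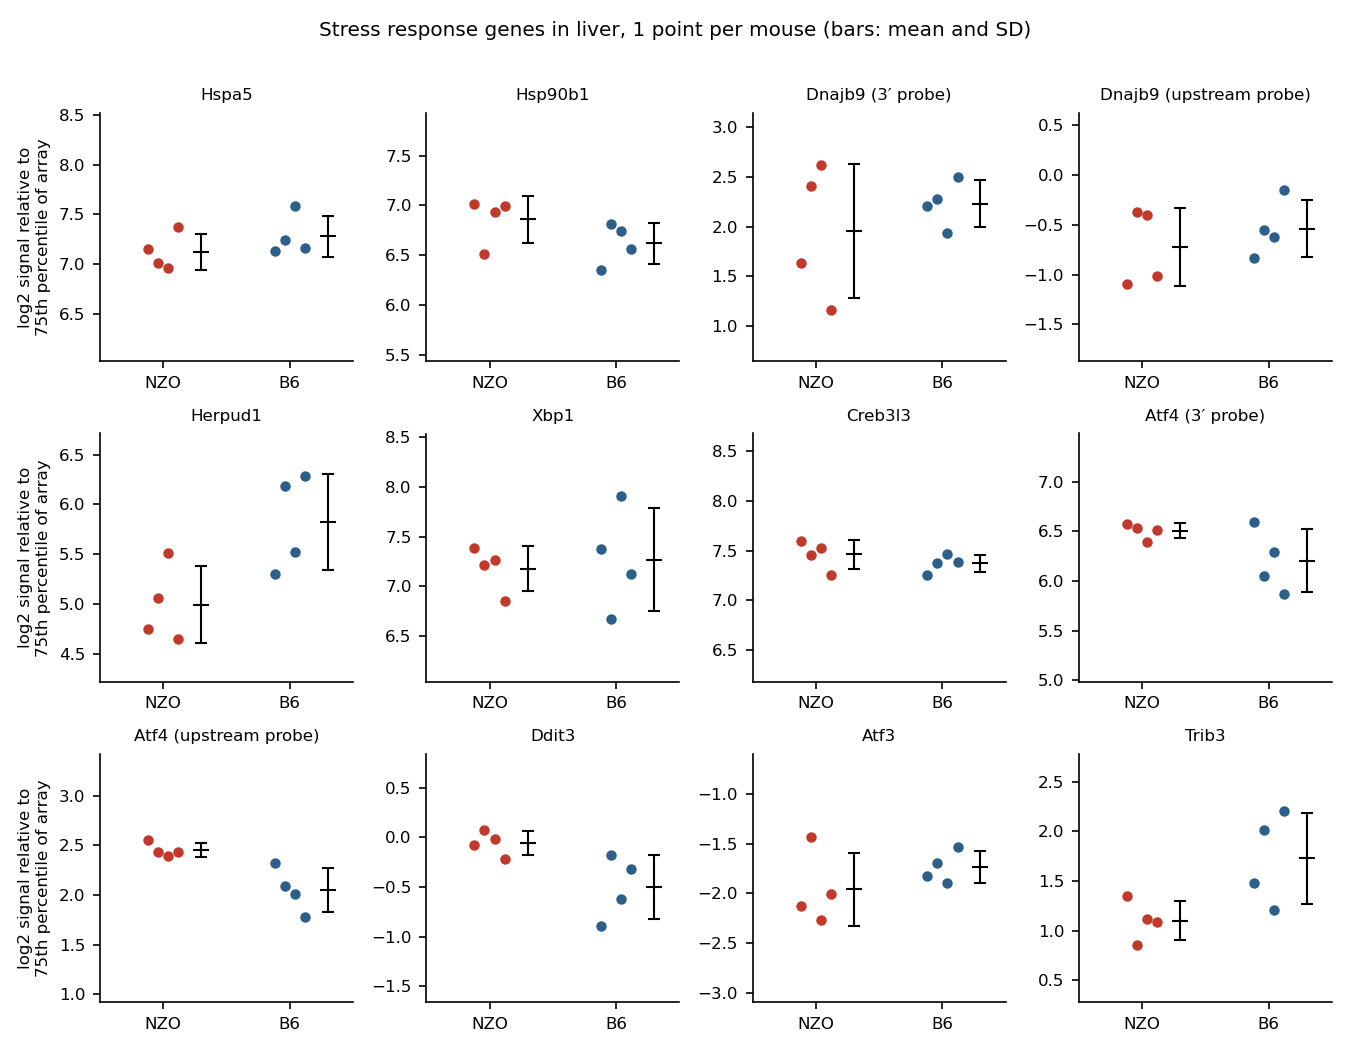
Level of each probe (log2 signal relative to the 75th percentile of the array) in 4 NZO and 4 B6 mice, 1 point per mouse, with mean and SD as bars; every panel spans the same range of 2.5 log2 units. The strains overlap in all panels except the upstream probe of Atf4.

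Among the chaperones of the ER, none of the probes was called. Hspa5 (BiP, GRP78) is the main Hsp70 chaperone of the ER, binds the sensors in the resting state and is the most used marker of the unfolded protein response. Its level was 7.15, 7.01, 6.96 and 7.37 in NZO 003, 007, 009 and 011 and 7.13, 7.24, 7.58 and 7.16 in B6 009, 010, 011 and 015 (probe at mm9 chr2:34631913-34631972). The highest mouse was B6 011, and the other B6 mice lay among the NZO mice. The means were 7.12 ± 0.19 in NZO and 7.28 ± 0.21 in B6 (SD, n = 4 each), and the log2 fold change was -0.16 (SE 0.14, interval -0.48 to 0.17, limma's adjusted p 0.520). This interval lay within the fold limits on both sides. The size of the difference rested on single mice, at -0.24 without NZO 011 and -0.056 without B6 011.

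Hsp90b1 (GRP94) is the Hsp90 chaperone of the ER. Levels were 7.01, 6.51, 6.93 and 7.0 in the NZO mice and 6.35, 6.82, 6.74 and 6.56 in the B6 mice, in the same order of animals (mm9 chr10:86153770-86153829). In NZO, 3 mice lay above all B6 mice and NZO 007 lay among the B6 values. The log2 fold change was 0.24 (SE 0.16, interval -0.11 to 0.60, limma's adjusted p 0.352), on means of 6.86 ± 0.24 and 6.62 ± 0.21 (SD, n = 4 each). With the deposited table the sign turned, to -0.04.

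Dnajb9 (ERdj4), a J-domain partner of Hspa5 and a target of spliced XBP1, was read by 2 probes on its minus strand. The probe nearer the 3′ end (mm9 chr12:45307313-45307372) gave 1.63, 2.41, 2.62 and 1.17 in NZO and 2.21, 2.28, 1.93 and 2.50 in B6. The NZO mice thus reached past both ends of the B6 range, with an SD of 0.68 in NZO against 0.24 in B6. For the probe further upstream (mm9 chr12:45308272-45308331) the levels were -1.10, -0.38, -0.40 and -1.02 in NZO and -0.84, -0.55, -0.62 and -0.15 in B6. The same NZO mice, 007 and 009, were the high ones on both probes. The log2 fold changes were -0.28 (SE 0.32, interval -1.0 to 0.45) and -0.18 (SE 0.22, interval -0.69 to 0.32), with adjusted p of 0.617 and 0.634 by limma. Both sizes rested on single mice, with -0.50 without NZO 009 and -0.012 without NZO 011 for the first probe, and -0.30 without NZO 007 and -0.054 without B6 015 for the other. The interval of the first probe reached past the fold limit on the negative side, and that of the other ended just inside it.

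Herpud1 showed the largest difference of the 12 probes. It encodes a membrane protein of the ER that takes part in ER-associated degradation (ERAD), and its promoter carries the ERSE-II shown above. The levels were 4.75, 5.06, 5.51 and 4.64 in NZO and 5.30, 6.19, 5.52 and 6.28 in B6 (mm9 chr8:96919117-96919176). NZO 009, the highest NZO mouse, lay between the B6 mice 009 and 011, and the other NZO mice lay below all B6 mice. The means were 4.99 ± 0.39 and 5.82 ± 0.49 (SD, n = 4 each), and the log2 fold change was -0.83 (SE 0.28, interval -1.47 to -0.19), or 0.562 times the B6 level. limma's p was 0.0167 and rose to 0.0896 after adjustment, so Herpud1 passed the fold limit and the unadjusted p but not the adjusted one. It was the only member past both limits without adjustment, 1 of 12 probes against the 12.2% above. With normexp background correction the adjusted p was 0.0488, at a log2 fold change of -0.90, and with the deposited table as given 0.0167, at -1.09, so that Herpud1 was called there. In none of the 8 single omissions was it called, with values of -1.01 to -0.68. That table moved the median log2 fold change of all tested probes from 0.01 to -0.15, and its values are to be read against this shift.

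The factors of the IRE1 branch and of the ER membrane had the differences closest to 0. Xbp1 mRNA is spliced by IRE1 into the form that encodes the active factor, and its single probe does not separate the spliced from the unspliced form. It read 7.38, 7.21, 7.27 and 6.85 in NZO and 7.38, 6.67, 7.91 and 7.12 in B6 (mm9 chr11:5425816-5425875). Both the highest and the lowest level were those of B6 mice, 011 and 010. The log2 fold change was -0.09 (SE 0.25, interval -0.67 to 0.49, limma's adjusted p 0.852). Its sign was not stable, since it was 0.02 with the scan day in the model, 0.49 with the slide as a fixed term, 0.12 without B6 011 and 0.02 without NZO 011.

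Creb3l3 (CREBH) is a liver factor that is cut from the ER membrane and controls genes of lipid metabolism and the acute phase. NZO mice had levels of 7.60, 7.46, 7.53 and 7.26, and B6 mice had 7.26, 7.38, 7.47 and 7.38 (mm9 chr10:80547080-80547139). Its log2 fold change of 0.09 was the smallest in size beside that of Xbp1, and its interval of -0.16 to 0.33 the narrowest (SE 0.11, limma's adjusted p 0.633). The sign turned to -0.04 with quantile normalization and to -0.14 with the deposited table. Single mice moved the difference as well, to 0.04 without NZO 003 and to 0.16 without NZO 011.

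**Figure D2:**
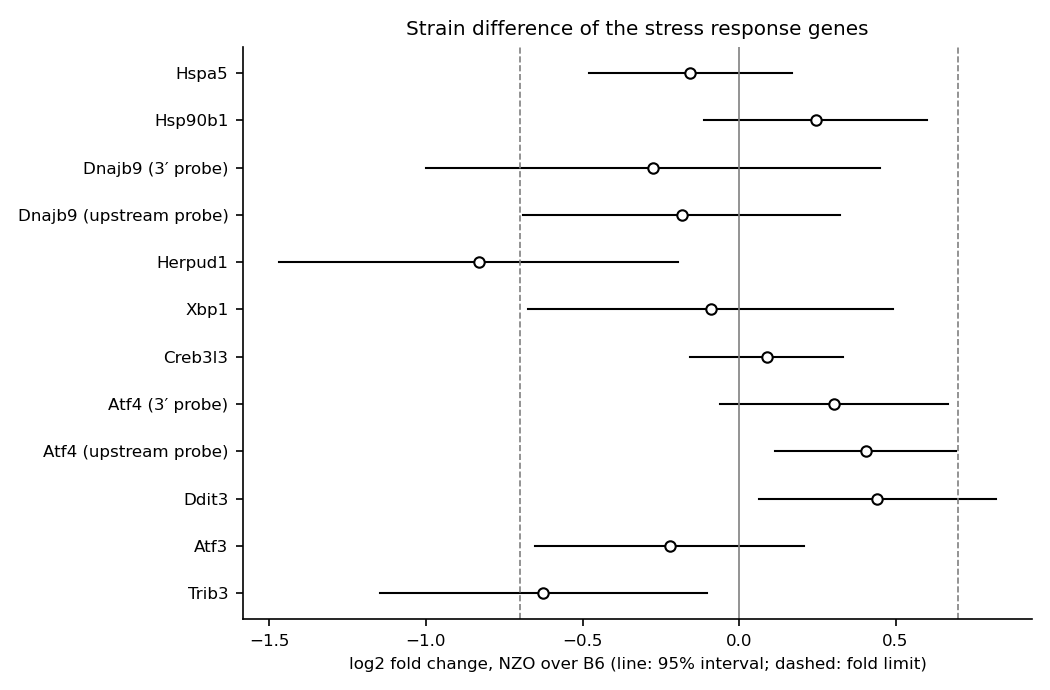
Log2 fold change of NZO over B6 for each of the 12 probes (open circles: not called) with the 95% interval of limma as a line; the dashed lines mark the fold limit of 0.7 in both directions. In 8 of 12 probes the whole interval lies between the dashed lines, and those of Herpud1, Trib3, Ddit3 and the 3′ probe of Dnajb9 cross one.

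The factors of the integrated stress response had differences of both signs, none of them called. Atf4 encodes its central transcription factor, and as its translation rises with eIF2 phosphorylation, the mRNA shows only part of its control. The probe nearer the 3′ end (mm9 chr15:80087902-80087961) read 6.58, 6.53, 6.40 and 6.52 in NZO and 6.60, 6.05, 6.29 and 5.87 in B6. B6 009 was level with the NZO mice and the other B6 mice were lower than all of them. The log2 fold change was 0.30 (SE 0.16, interval -0.06 to 0.67, limma's adjusted p 0.259). It was 0.19 without B6 015, 0.05 with the deposited table and 0.01 with the mouse number as a replicate block. With the slide as a fixed term it was 0.62. The upstream probe (mm9 chr15:80086639-80086698) read 2.56, 2.44, 2.39 and 2.44 in NZO and 2.32, 2.09, 2.01 and 1.78 in B6. Here all NZO mice lay above all B6 mice, the single case among the 12 probes, while 22.0% of all tested probes separated the strains in this way. The log2 fold change was 0.40 (SE 0.13, interval 0.12 to 0.69) with an unadjusted p of 0.0119 and an adjusted p of 0.0713 by limma, so this probe stayed under the fold limit and over the limit of the adjusted p. Both probes varied less in NZO, with an SD of 0.077 and 0.070, than in B6, with 0.32 and 0.22, but the difference in spread was not tested.

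Ddit3 (CHOP), a target of ATF4 that favours cell death under lasting stress, gave -0.08, 0.07, -0.01 and -0.21 in NZO and -0.89, -0.17, -0.62 and -0.32 in B6. On the array design the probe joins separate stretches within mm9 chr10:126732518-126732821. B6 010 lay just inside the NZO range and the other B6 mice lay below it. The means were -0.06 ± 0.12 and -0.50 ± 0.32 (SD, n = 4 each), and the log2 fold change was 0.44 (SE 0.17, interval 0.06 to 0.82). limma's p of 0.0275 became 0.124 after adjustment. The interval ran from near 0 to past the fold limit.

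Atf3, a repressor that is induced early by ATF4 and by other stress signals, had levels of -2.13, -1.43, -2.27 and -2.01 in NZO and -1.83, -1.69, -1.89 and -1.53 in B6 (mm9 chr1:192994547-192994606). NZO 007 was the highest of all mice and the other NZO mice were the lowest. The log2 fold change was -0.22 (SE 0.19, interval -0.65 to 0.21, limma's adjusted p 0.490). It was -0.40 without NZO 007 (adjusted p 0.0825), an array with high muscle markers, -0.12 without NZO 009 and -0.0078 with normexp, so its size rested on single mice and on the background correction.

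Trib3, a pseudokinase that is a target of ATF4 and CHOP and can bind the kinase AKT, was the second largest difference. Its levels were 1.34, 0.86, 1.12 and 1.09 in NZO and 1.48, 2.02, 1.21 and 2.20 in B6 (mm9 chr2:152163161-152163220). B6 011 lay within the NZO range and the other B6 mice lay above it. On means of 1.1 ± 0.20 and 1.73 ± 0.46 (SD, n = 4 each) the log2 fold change was -0.63 (SE 0.23, interval -1.15 to -0.10), or 0.648 times the B6 level, with a p of 0.0243 and an adjusted p of 0.114 by limma. Trib3 was called with the scan day in the model (-0.77, adjusted p 0.0102), with the deposited table as given (-0.80, adjusted p 0.00912) and when B6 011 was left out (-0.80, adjusted p 0.0474), but in none of the other 7 omissions, with -0.47 without B6 015. Ddit3 and Trib3, both below ATF4 in the pathway, thus had differences of opposite sign, neither of which passed the adjusted p.

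Over all members, limma called 0 of 12 probes, with 9.62% as the share over the array. At an unadjusted p of at most 0.05 there were 4 (Herpud1, Trib3, Ddit3 and the upstream probe of Atf4), against a share of 27.8%, and the test named in the methods gave 2 at that limit and 0 after adjustment. The differences were positive in 5 probes and negative in 7. The median size of the log2 fold change was 0.26 in the 12 probes and 0.24 in all probes tested. For 8 of the 12 probes the interval lay fully within the fold limits, as it did for 53.2% of all probes (14708 of 27639).

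The arrays came from 5 slides and 2 scan days, numbered here for reference, and both strains were present on both days (3 NZO and 2 B6 on day 1, 1 NZO and 2 B6 on day 2). Only slide 1, with NZO 003, B6 010 and B6 015, held both strains. For Herpud1 the B6 mice of day 1 averaged 6.24 and those of day 2 5.41, and for Trib3 they averaged 2.11 and 1.35. The B6 mice high in both genes, 010 and 015, were thus those of slide 1. For Herpud1 the NZO minus B6 difference was -1.27 within day 1 and -0.35 within day 2, with -0.94 for the scan day as a fixed term (limma's adjusted p 0.0520) and -1.49 within slide 1, which is also the value with the slide as a fixed term (adjusted p 0.122). For Trib3 it was -0.92 within day 1, -0.49 within day 2 and -0.76 within slide 1 (adjusted p 0.0999). The NZO mice had the lower mean in both genes on both days, and the part of the slide and the day in the size of the difference was not tested.

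**Figure D3:**
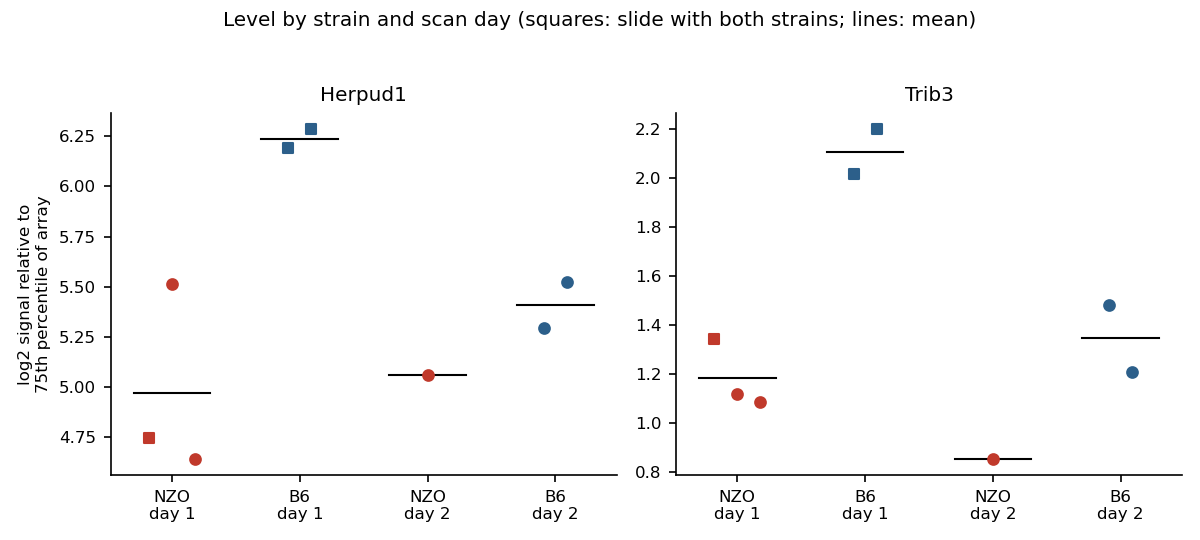
Level (log2 signal relative to the 75th percentile of the array) of Herpud1 and Trib3 by strain and scan day, 1 point per mouse, squares for the slide with both strains and lines for the mean; the axes do not start at 0. The B6 mice of day 1 lie highest in both genes, at 6.19 and 6.28 for Herpud1 and at 2.02 and 2.20 for Trib3.

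Across the other probes the direction was the same within both days for 7 of the 12, Herpud1 and Trib3 included, and opposite for 5. Ddit3 was 0.14 higher in NZO within day 1 and 0.83 within day 2, and the Atf4 probes were 0.54 and 0.53 higher within day 1 and 0.09 and 0.27 within day 2 (3′ and upstream). Hspa5 gave -0.04 and -0.35 and Creb3l3 gave 0.08 and 0.10. The 5 probes of opposite direction were Hsp90b1 (0.29 and -0.04), Xbp1 (0.27 and -0.43), Atf3 (-0.52 and 0.43) and both Dnajb9 probes (-0.59 and 0.34, -0.49 and 0.35). On day 2, these values rest on a single NZO mouse, NZO 007.

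To place the 10 genes within their pathways, 11 lists with 195 other genes were read from the same fit, each gene by its tested probe with the highest mean. Of these genes 186 were tested, 7 were called higher and 8 lower in NZO, and their median log2 fold change was 0.04. Over all 20156 genes tested, 4.42% were called higher and 5.01% lower, and the median was 0.03. Of the 15 called genes, 14 were above background on all arrays, and Fos, at background in NZO, is set aside here. Of these 14 genes, 13 separated the strains without overlap, beside 22.0% of all probes tested. All 14 kept their direction within both scan days, with 1 NZO mouse on day 2. As these genes were chosen for being called, both counts are read as no support. With the slide as a fixed term, whose estimate rests on the 3 arrays of slide 1, limma called 1 of these genes, Eif2ak2.

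**Figure D4:**
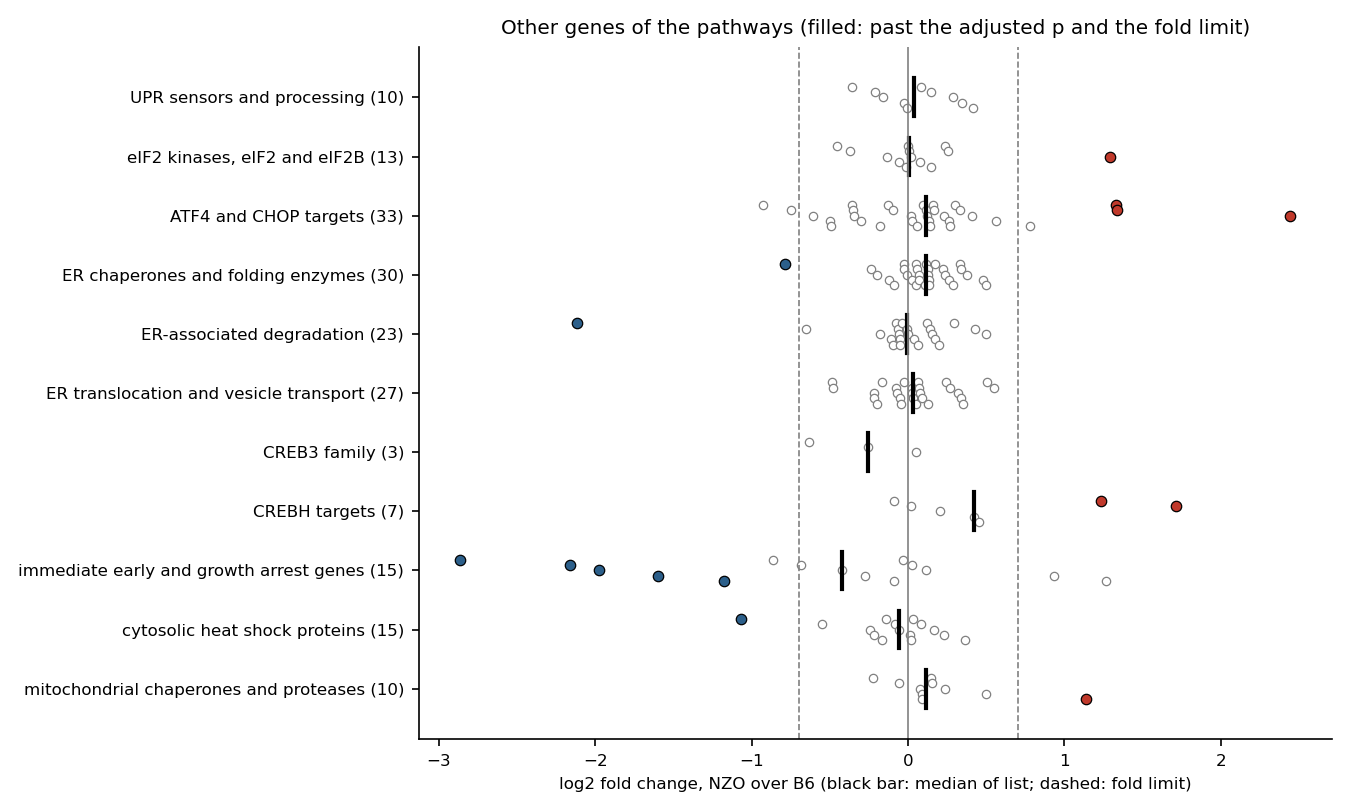
Log2 fold change of NZO over B6 for each tested gene of the 11 lists (number of genes in brackets), filled red when called higher and blue when called lower in NZO, with the median of each list as a black bar and the fold limit of 0.7 as dashed lines. The 5 points called among the 15 immediate early and growth arrest genes include Fos, whose NZO level is only a bound.

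Of 10 genes for sensors and their processing, 0 were called by limma, beside 4.42% of all genes called higher and 5.01% called lower. An unadjusted p of at most 0.05 was found for 2 of them, beside 27.8% of all probes tested. Their median log2 fold change was 0.04. Ern1, which encodes IRE1, had a log2 fold change of 0.34 (SE 0.18, limma's adjusted p 0.264). This value was 0.21 without B6 010, 0.49 without B6 011 and 0.09 with the deposited table. Eif2ak3 was at -0.21 (SE 0.23, adjusted p 0.596), with -0.37 without NZO 009 and -0.019 without NZO 011. Atf6 was at -0.36 (SE 0.13, adjusted p 0.116). Another tested probe of Ern1 (mm9 chr11:106275124-106275183) went the other way, at -0.79 with an adjusted p of 0.0593, and a further one was above background on only 1 NZO array and is not read here. Among 13 genes for eIF2, its kinases, its phosphatases and its exchange factor eIF2B, 1 was called. Eif2ak2, which encodes the RNA-activated kinase PKR and is inducible by interferon, had levels of 1.39, 1.25, 1.15 and 1.36 in NZO and -0.08, 0.01, 0.05 and 0.03 in B6. Its log2 fold change was 1.29 (SE 0.094, limma's adjusted p 6.1e-05), or 2.44 times the B6 level. Ppp1r15a (GADD34), which guides the phosphatase to eIF2 and is itself a target of ATF4, was not called, at -0.37 (SE 0.20, adjusted p 0.270). Eif2s1, the eIF2 subunit that the kinases phosphorylate, was near 0 on its probe of highest mean, but another probe (mm9 chr12:79987922-79987981) was called higher in NZO at 1.87 (SE 0.13, adjusted p 4.6e-05), so the probes of this gene disagree.

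Of 36 targets of ATF4 and CHOP, 33 were tested, 3 were called higher in NZO and 30 were not called. The shares over all genes were 4.42% called higher and 5.01% called lower. By limma, 11 of the 33 had an unadjusted p of at most 0.05, beside 27.8% of all probes tested. The median log2 fold change of the list was 0.11, beside 0.03 for all genes, and 3 genes, Aldh1l2, Slc7a11 and Slc7a3, were too dim to be tested. Fgf21, a hormone of the liver that raises fat oxidation and is induced by ATF4 and by PPAR alpha, had levels of 0.20, 0.65, 0.84 and -1.72 in NZO and -2.88, -2.08, -1.33 and -3.53 in B6. NZO 011 lay within the B6 range and the other NZO mice lay far above it. The log2 fold change was 2.45 (SE 0.65, interval 0.95 to 3.94, limma's adjusted p 0.0403), or 5.45 times the B6 level, and the call was lost when any mouse other than NZO 011 or B6 011 was left out (6 of 8 omissions), with differences between 2.09 and 3.02 over the 8 omissions. The log2 fold change was smaller with normexp background correction (1.35) and with the deposited table (1.59), both called. By the test named in the methods Fgf21 had a p of 0.0188 and an adjusted p of 0.116. It passed that test only without the adjustment, which the methods do not name.

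Atf5, a factor whose mRNA is translated like that of Atf4 and which is abundant in liver, had levels of 9.47, 9.24, 9.24 and 9.19 in NZO and 7.96, 8.23, 7.88 and 7.73 in B6. It rose by 1.34 (SE 0.13, limma's adjusted p 0.00029). Mthfd2, a mitochondrial enzyme of the folate cycle, had levels of -1.10, -1.06, -1.42 and -1.47 in NZO and -2.80, -2.20, -2.39 and -2.96 in B6, and rose by 1.33 (SE 0.19, adjusted p 0.0023). Both genes separated the strains, but Mthfd2 was not called with normexp (0.54, adjusted p 0.0012) or with the deposited table (0.63, adjusted p 0.013). In both settings it missed the fold limit alone. The lowest value of the list was that of Gdf15, a secreted stress factor, at -0.93 (SE 0.30, adjusted p 0.0815), which was not called. Nor were the classical ATF4 targets Asns and Chac1: Asns, asparagine synthetase, had a log2 fold change of -0.75 (SE 0.27, adjusted p 0.111) and Chac1, which degrades glutathione, of 0.12 (SE 0.50, adjusted p 0.903). Asns was called with the deposited table (-0.87, adjusted p 0.0155) and without B6 009 (-1.0, adjusted p 0.0172), where the list then held a gene lower in NZO as well.

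Among the genes that carry out folding and degradation in the ER, 1 gene of each list was called. For comparison, 4.42% of all genes were called higher and 5.01% lower. Of 32 other chaperones and folding enzymes 30 were tested, 1 fell, 29 were not called and the median was 0.11. Fkbp7, a prolyl isomerase of the ER, had levels of 0.06, -0.29, -0.22 and -0.12 in NZO and 0.70, 0.64, 0.59 and 0.65 in B6. It fell by 0.79 on the log2 scale (SE 0.10, limma's adjusted p 0.0014). Under normexp Fkbp7 was not called, through the fold limit alone (-0.59, adjusted p 0.00088). Of 24 ERAD genes 23 were tested, 1 fell, 22 were not called and the median was -0.01. This gene was Derl3, a member of the derlin family that takes part in passing proteins from the ER to the proteasome. Its levels were 0.99, 0.48, 0.24 and 0.56 in NZO and 3.11, 3.27, 2.50 and 1.86 in B6, so that all B6 mice lay above all NZO mice. Derl3 fell by 2.12 (SE 0.32, interval -2.84 to -1.40, adjusted p 0.0028), to 0.230 times the B6 level, and without 1 mouse at a time the log2 fold change stayed between -2.39 and -1.92. Another probe of Ube2j2, an ubiquitin-conjugating enzyme of this list, was called lower in NZO at -0.89, while the probe of highest mean was at -0.08, so the probes of this gene disagree too. Of the 27 genes for translocation into the ER and vesicle transport 0 were called by limma, with a median of 0.03. An unadjusted p of at most 0.05 was found for 6 of them, beside 27.8% of all probes tested. The ERSE shown for Hspa5, Hsp90b1 and Derl3 was also found in Calr, Canx, Creld2, Dnajc3, Ero1b, Pdia6 and Syvn1, none of which was called.

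CREBH targets and the other members of its family were few. Of 3 tested relatives of Creb3l3, 0 were called by limma (0 at an unadjusted p of at most 0.05), while 2 of 7 targets were called higher in NZO. Over all genes tested, 4.42% were called higher and 5.01% lower. Apcs, which encodes serum amyloid P, had levels of 5.36, 5.58, 5.80 and 5.04 in NZO and 3.27, 3.55, 3.58 and 4.54 in B6. It rose by 1.71 (SE 0.29, adjusted p 0.0049). Apoa4, an apolipoprotein, had levels of 6.73, 5.56, 5.63 and 6.12 in NZO and 4.68, 4.22, 4.83 and 5.37 in B6, and rose by 1.23 (SE 0.32, adjusted p 0.0358). The call of Apoa4 was lost with the scan day in the model (1.16, limma's adjusted p 0.0566). It was also lost when NZO 003 or NZO 011 was left out (0.99 and 1.20), as it was for B6 009, B6 010 and B6 011 (1.20, 1.05 and 1.25). By the test named in the methods Apoa4 had a p of 0.0146 and an adjusted p of 0.100, so it passed only without adjustment. The other 5 targets were not called, and the median of the list was 0.42.

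Of 16 immediate early and growth arrest genes, a class in which Atf3 is often counted, 14 were above background on all arrays, and of these Egr1, Cyr61, Junb and Btg2 fell in NZO, 0 rose and 10 were not called, beside 4.42% higher and 5.01% lower over all genes. The median of the 15 tested genes, Fos included, was -0.42, and the largest positive value was that of Myc, at 1.27 (SE 0.72, adjusted p 0.299). Egr1, a zinc finger factor, had levels of -1.88, -0.17, -0.19 and -3.00 in NZO and 0.92, 2.41, 1.22 and 1.67 in B6, and fell by 2.86 on the log2 scale (SE 0.66, limma's adjusted p 0.0220), or by 1.85 with normexp. Fos, a subunit of the factor AP-1, was not above background on any NZO array and was above it on all B6 arrays. Its measured means were -5.26 ± 0.79 and -3.28 ± 0.71 (SD, n = 4 each), and as the NZO level is only a bound, Fos was at least 1.84-fold lower in NZO, with each NZO array at the lowest level above background found on it or at its own value if higher. Fos passed the filter through B6, the strain where it is high, so its call is read as no support, and with normexp it was not called (adjusted p 0.588). Cyr61, a matrix protein, fell by 2.16 (SE 0.39, adjusted p 0.0069), Junb, another subunit of AP-1, by 1.60 (SE 0.21, adjusted p 0.0013), and Btg2, an antiproliferative gene, by 1.18 (SE 0.20, adjusted p 0.0057). With normexp the difference of Cyr61 was -1.20 and called, while Junb (-0.32, adjusted p 0.0677) and Btg2 (-0.63, adjusted p 0.0061) were not called. Btg2 missed the fold limit alone. Within the days the difference of Egr1 was -3.73 and -1.23. B6 010, an array with high muscle markers, had the highest level of Egr1, Fos, Junb and Cyr61 of all mice. Without B6 010, Egr1 was at -2.58 and not called (adjusted p 0.0632), while without NZO 007, the other such array, it was at -3.24 and called. The call of Egr1 was also lost without NZO 003 (-2.67) or B6 015 (-2.83). It was lost as well with the test named in the methods once p was adjusted (p 0.0179, adjusted p 0.113). The part of muscle RNA in these differences was not tested.

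In the lists outside the ER, 1 of 15 cytosolic heat shock genes was called, with a median of -0.06. For these lists too, the shares over all genes were 4.42% called higher and 5.01% called lower. Hspb1 (HSP27) had levels of 2.02, 1.93, 1.74 and 1.97 in NZO and 2.95, 3.34, 3.05 and 2.61 in B6 and fell by 1.07 (SE 0.16, limma's adjusted p 0.0027). Of 10 mitochondrial chaperones and proteases 1 rose and the median was 0.12. This was Hspe1 (HSP10), the partner of the mitochondrial chaperonin, with levels of 6.89, 6.84, 6.73 and 6.98 in NZO and 5.66, 5.66, 5.83 and 5.74 in B6 and a log2 fold change of 1.14 (SE 0.096, adjusted p 0.00013). Another probe of Hspe1 was called in the same direction at 1.39 (SE 0.10, adjusted p 6.5e-05), and a further one was not, at 0.67 (SE 0.21, adjusted p 0.0697).

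**Figure D5:**
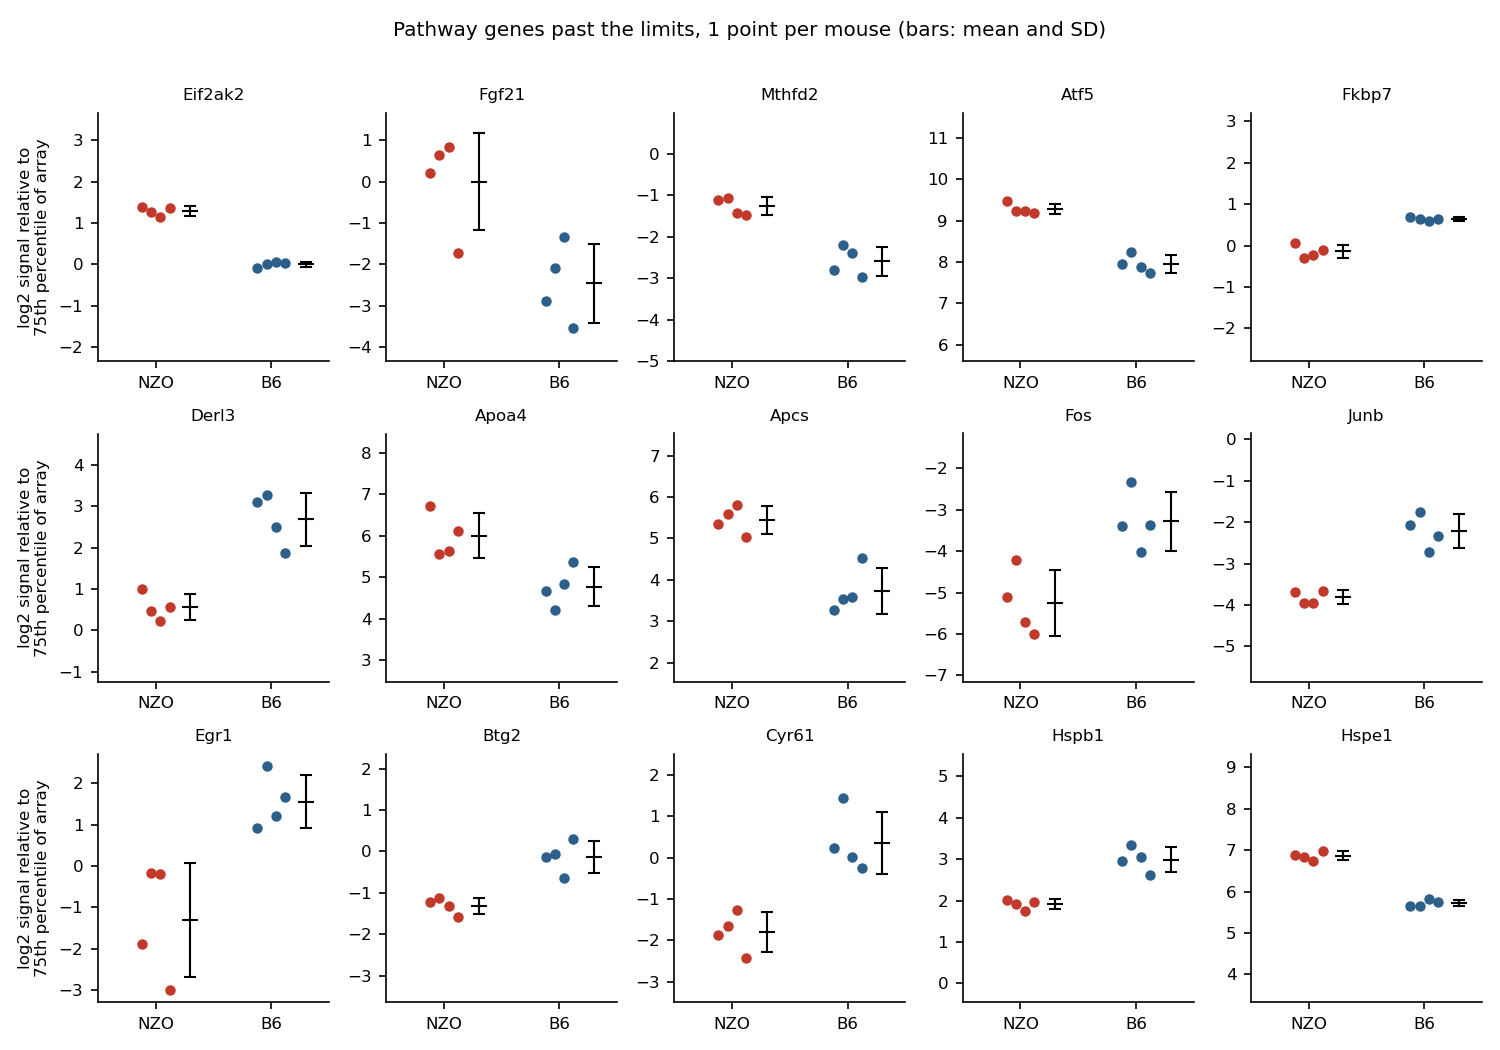
Level (log2 signal relative to the 75th percentile of the array) of the 15 called genes of the pathway lists in 4 NZO and 4 B6 mice, 1 point per mouse, with mean and SD as bars; every panel spans 6 log2 units. The strains overlap for Fgf21 alone, through NZO 011 at -1.72, and the NZO values of Fos are not above background.

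Markers of other cells differed between the strains and are given beside these results. The summed level of 4 red blood cell markers, led by Hba-a1, was 8.19 to 8.88 in NZO and 7.28 to 7.70 in B6, and Hba-a1 (1.00, limma's adjusted p 0.0183) and Alas2 (0.90, adjusted p 0.0023) were called higher. The sum of 5 macrophage markers, led by Csf1r, was 5.67 to 6.09 in NZO and 6.26 to 6.95 in B6, with Clec4f, a gene of Kupffer cells, called lower (-1.13, adjusted p 0.00085). All 5 macrophage markers had an unadjusted p of at most 0.05, and 4 were lower in NZO, but Lyz2 was higher, at 0.41 (adjusted p 0.109), so the list did not go one way. That of 4 biliary markers, led by Krt19, was -1.08 to -0.38 in NZO and 0.19 to 0.61 in B6, with Sox9 called lower (-1.47, adjusted p 0.0089). Lymphocyte and plasma cell markers (led by Cd3e), endothelial markers (Clec4g) and stellate cell markers (Col1a1) overlapped between the strains, and 0 of these genes were called by limma (1 in each list had an unadjusted p of at most 0.05). Of 4 adipocyte markers Adipoq, Plin1 and Lep, and of 6 markers of exocrine pancreas Cela3b, Pnlip, Cpa1 and Prss2, were at background on all arrays, and Fabp4 and Ctrb1 led these lists. The hepatocyte sum was 0.19 higher in NZO with no overlap, although 0 of its 5 genes were called by limma (0 at an unadjusted p of at most 0.05). The part of red cells, macrophages and biliary cells in the differences above was not tested.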

How the data were processed

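Total RNA of liver from 4 NZO and 4 B6 mice was measured on 1-colour Agilent arrays, and the groups were taken from the sample titles. The files deposited by the authors are 8 scanner outputs, with the intensity of 59305 spots besides controls as Agilent Feature Extraction gave it (11.0.1.1 in the file headers, 9.1 in the submitters' processing notes), and a series table named as normalized, whose values equalled the raw median intensity for all 59305 spots of each array (tolerance 0.01). The processed signal used here has the background subtracted within an array and no scaling between arrays. The probes are placed on the mm9 build, a C57BL/6 sequence, and bases that differ in NZO under a probe were not examined.

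After removal of control spots and of 96 to 137 outlier spots on an array, log2 values were set relative to the 75th percentile of each array (119 to 142 in NZO, 136 to 159 in B6), and spots of a probe were averaged. Between 50.4% and 60.1% of spots were well above background and 0 were saturated. A probe was tested if every array of at least 1 strain had it well above background, as held for 27639 of 55681. limma 3.58.1 in R 4.3.3 compared the strains with no covariate, and p was adjusted by Benjamini-Hochberg. The limits of 0.05 and 0.7 are those of the methods, which name no adjustment. Tables and plots were made with Python 3.11.15 (pandas 2.3.3, matplotlib 3.10.9). Columns that name no sample of the series numbered 0.

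The members, lists and limits were chosen with earlier results of these data known. Named genes were all member probes, Ern1, Eif2ak3, Atf6, Asns, Chac1, Fgf21 and Ppp1r15a, the called genes of each pathway list (at most 3 in each direction where over 5 were called), and the most abundant and any called gene of each marker list. Eif2s1, Ube2j2, Lyz2, the genes that are dim or at background and the genes with a promoter element were named after their values were seen. Of 195 pathway genes, 194 had a probe under their name or a synonym. The alternatives were normexp background correction (offset 50), quantile normalization, the deposited table as input, no filter on dim probes, a single probe per gene, slide or scan day in the model, a replicate block by mouse number, the methods' test with Welch correction, unadjusted p, and leaving out each mouse.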

Additional observations from a re-analysis of the deposited data

Results flagged for a closer look

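Of 74 sets of 4 arrays examined, 1 held a value set apart from the rest of its strain by the gap criterion of Dixon. By chance about 1 in 20 of such sets is flagged, so 1 of 74 is no more than chance gives. It was Hsp90b1 in NZO 007, at 6.51 on the log2 scale relative to the 75th percentile of the array, with the nearest NZO mouse at 6.93. NZO 007 was also the NZO mouse with high muscle markers and the single NZO mouse of scan day 2. Without it, the log2 fold change of Hsp90b1 was 0.36 and was not called.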

How the results depend on the processing

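The 12 member probes gave 0 calls under quantile normalization, no filter on dim probes, the slide as a random or fixed term, the replicate block and the test with Welch correction, as did the 10 kept with 1 probe per gene. The 12 gave 1 with normexp, the scan day, unadjusted p or B6 011 left out (0 to 1 over the single omissions), and 2 with the deposited table. Calls over all probes numbered 2658 (1198 higher, 1460 lower). They were 1198 with normexp (615 higher, 583 lower), 1481 under a fixed slide term (497 higher) and 1721 with Welch correction (890 lower), and 575 probes were higher with the deposited table. Over the single omissions there were 2330 to 2659. Called genes of the pathway lists numbered 15 (8 lower) and 11 to 16 over the omissions, with 4 lower under normexp and 1 (1 higher, 0 lower) under a fixed slide term. The mouse numbers 009 and 011 occur in both strains, and the deviations of such arrays from their strain means correlated at -0.26 and -0.004. These correlations cannot show whether such mice were handled together, which the labels do not say. With the mouse number as a replicate block 206 probes were called (72 higher, 134 lower), with 0 members and 0 pathway genes (0 higher, 0 lower). Herpud1 was then at -0.33 (limma's adjusted p 0.637) and Trib3 at -0.24 (adjusted p 0.456). The other numbers occur in a single strain, so this fit estimates the strain difference from mice 009 and 011 alone. Signs turned, each without a call, for Creb3l3 (-0.040 with quantile normalization, -0.14 with the deposited table), Hsp90b1 (-0.039, deposited table), Xbp1 (0.49 slide fixed, 0.022 scan day, 0.018 without NZO 011, 0.12 without B6 011, with -0.29 to 0.12 over the omissions), the upstream probe of Dnajb9 (0.022, replicate block) and Chac1 (-0.091 deposited table, -0.66 replicate block, -0.12 without NZO 003, -0.32 without B6 010, with -0.32 to 0.42 over the omissions). Mthfd2 and Junb lost their calls with normexp (0.54 and -0.32) and with the deposited table (0.63 and -0.67), Fos lost its call with both, and Fkbp7 (-0.59) and Btg2 (-0.63) with normexp. All of these fell under the fold limit, and Junb and Fos with normexp also missed the limit of the adjusted p. Fgf21, Apoa4, Fos and Egr1 were not called without a filter on dim probes or with Welch correction, with p adjusted in both. Each of these settings left 11 pathway genes called. Under a fixed slide term Egr1 (-3.92) and Apoa4 (1.94) lost their calls. The cause of these changes was not tested. The median raw signal was 1.72 to 2.0 times its local background, which limits the differences of dim genes such as Fos and Atf3.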
